A study of Danio rerio with 12 samples.

Results

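Transcripts of 4 pancreatic islet hormone genes were followed through liver RNA-seq libraries of zebrafish: ins (preproinsulin, the beta cell hormone), sst1.1 (a somatostatin, the hormone class of delta cells), and gcga and gcgb (the duplicated proglucagon genes, whose hormone in alpha cells is glucagon). They are the genes of the count table whose name is ins, gcga, gcgb or sst1.1, that is 4 of 34028 genes. They were taken up because their levels in these libraries were known to differ between groups, so those levels and the differences between them are given as a description, without p-values. In the count table ins lies on chromosome 5, gcga on chromosome 22, gcgb on chromosome 9 and sst1.1 on chromosome 15.

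Islets are small groups of endocrine cells within the pancreas, and their hormones travel in the blood to the liver among other organs. Insulin drives the liver to store glucose and to make fat, glucagon drives it to release glucose, and somatostatin restrains the secretion of both. Hepatocytes carry the receptors for insulin and glucagon and are not a known site of insulin production. In zebrafish the pancreas lies against the gut and liver, and its exocrine tissue, which makes digestive enzymes, surrounds the islets.

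All libraries came from livers of krasV12 transgenic zebrafish that were 3 months old. There were 4 groups of 3 libraries. One group had TDCIPP, the flame retardant tris(1,3-dichloro-2-propyl)phosphate, together with DOX. The others had TDCIPP, DOX or DMSO, the solvent control. The labels do not spell out DOX, give no dose or duration, and do not name the promoter of the transgene or say whether a library is 1 fish. The p-values therefore cover only how far these libraries vary, which may be technical.

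The libraries held 28621536 to 40877342 reads assigned to genes. CPM is the count of a gene scaled to library size by TMM, and errors are SDs over 3 libraries unless called SE. Of the 20 liver markers on a hepatocyte list, 19 were matched, and they summed to 66140 to 139000 CPM. Transferrin (tfa) averaged 42700, 49300, 33600 and 48200 CPM, and the liver fatty acid binding protein gene fabp10a 5340, 7250, 7880 and 9950 CPM, with TDCIPP+DOX, TDCIPP, DOX and DMSO. For TDCIPP+DOX against TDCIPP edgeR called 2 of the 19 higher and 0 lower, beside 2.03% and 2.16% of all genes. In the other comparisons it called 0, beside 0.0261% to 6.86% of all genes. The 2 were serpina1l (log2 2.51 ± 0.45 SE, edgeR adjusted p = 0.0149) and ttr (log2 1.5 ± 0.28 SE, edgeR adjusted p = 0.0178). They were kept in 9 and 8 of 12 fits that left out 1 library. DESeq2 called 4 of the list in that comparison and 4 for DOX against DMSO, beside 1638 and 2585 of 28600 genes. Hormone transcripts made up 2 to 419 reads of a library, 1502 in all. Replicate 3 of DOX stood apart: the 18 oocyte genes on a list summed to 2432 CPM there, against 14.89 to 261.6 CPM in the other libraries.

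Insulin mRNA was present at low level in every TDCIPP+DOX and DMSO library and nearly missing from the others. The 3 TDCIPP+DOX libraries had 4.91, 1.03 and 2.2 CPM of ins, from 243, 58 and 102 reads. The TDCIPP libraries had 0.03, 0.55 and 0.10 CPM, from 1, 16 and 4 reads. The DOX libraries had 0.03, 0.00 and 0.44 CPM, from 1, 0 and 20 reads, and the 20 reads were in replicate 3. The DMSO libraries had 6.67, 11.44 and 1.61 CPM, from 147, 236 and 36 reads. Neither TDCIPP nor DOX libraries overlapped TDCIPP+DOX or DMSO libraries, whereas TDCIPP+DOX and DMSO libraries overlapped each other, as did TDCIPP and DOX libraries. In bulk RNA, fewer cells of a type and less RNA per cell cannot be told apart.

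The somatostatin gene sst1.1 was divided between the groups in the same way. It had 1.23, 0.69 and 2.76 CPM in TDCIPP+DOX libraries, from 61, 39 and 128 reads. A single read was found over all 3 TDCIPP libraries, in replicate 3. The DOX libraries held 1, 0 and 4 reads. DMSO libraries had 1.59, 1.75 and 0.58 CPM, from 35, 36 and 13 reads. The lowest TDCIPP+DOX and DMSO libraries were thus well above the highest DOX library, at 0.09 CPM.

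Of the proglucagon genes, gcgb followed the same division and gcga did so less fully. The gcgb gene had 0.67, 0.12 and 0.28 CPM in TDCIPP+DOX libraries, from 33, 7 and 13 reads, and 1.54, 0.78 and 0.18 CPM in DMSO libraries, from 34, 16 and 4 reads. No gcgb read was found in TDCIPP libraries, which allows up to 0.0293 CPM over the group (a floor of 3 reads, counting error only), and DOX libraries held 1 read in all. For gcga, TDCIPP+DOX libraries had 1.66, 0.34 and 0.43 CPM, TDCIPP libraries 0.09, 0.49 and 0.05 CPM, DOX libraries 0.15, 0.07 and 0.13 CPM, and DMSO libraries 1.09, 1.36 and 0.31 CPM. The gcga level of TDCIPP replicate 2 reached into the range of both TDCIPP+DOX and DMSO libraries. Only the DOX libraries were separate for this gene, and from DMSO clearly so only on the TMM scale. By library totals, DOX replicate 3 and DMSO replicate 3, with 6 and 7 reads, both rounded to 0.2 CPM.

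**Figure D1:**
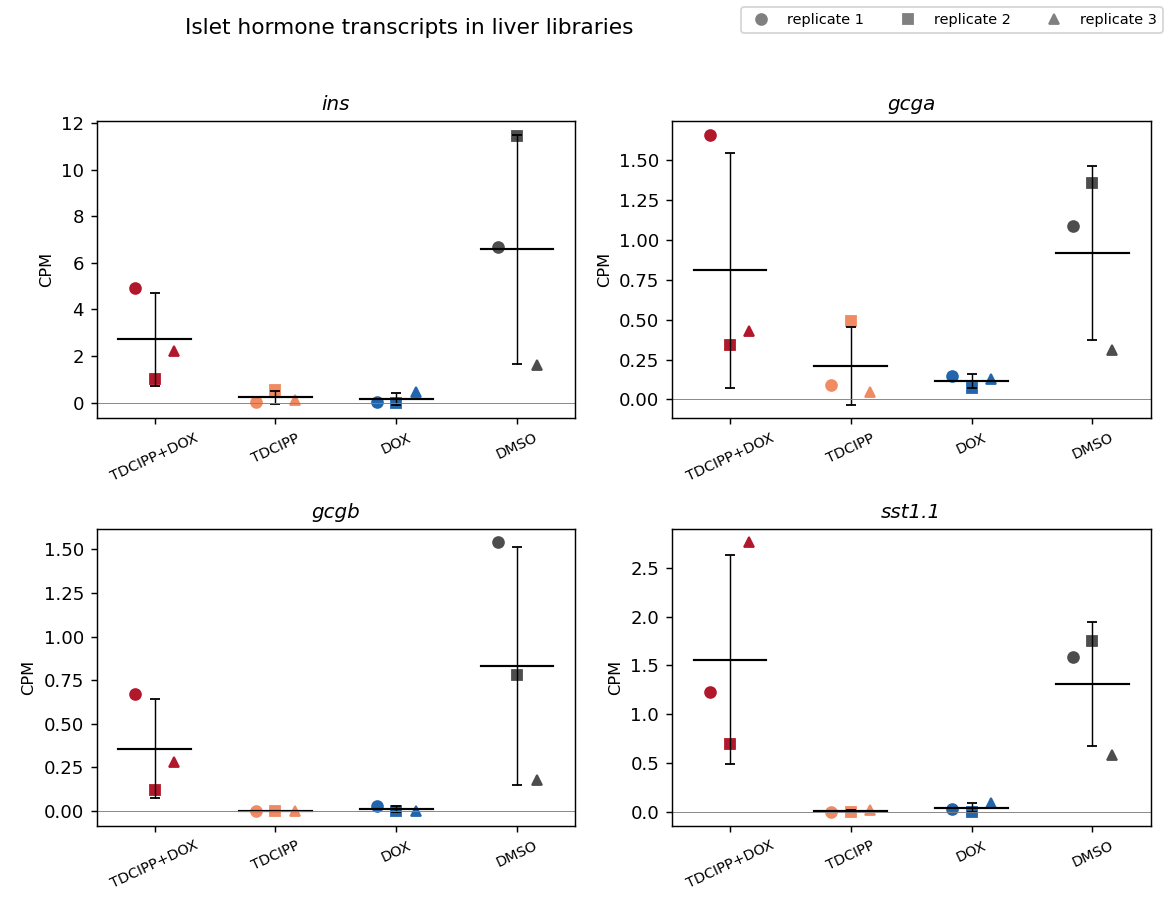
Levels of ins, gcga, gcgb and sst1.1 in CPM in each library, with groups along the x axis, the group mean as a bar and the SD as whiskers (n = 3). Every TDCIPP and DOX library lies below every TDCIPP+DOX and DMSO library for ins, gcgb and sst1.1, and gcga overlaps through TDCIPP replicate 2.

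With TDCIPP alone, hormone transcripts stood lower than with DMSO. Mean ins was 0.228 ± 0.285 CPM with TDCIPP and 6.58 ± 4.92 CPM with DMSO (SD, n = 3 each), a fitted log2 fold change of −4.87 ± 1.33 (SE). It was −6.56 without TDCIPP replicate 2 and −4.20 without DMSO replicate 2. For gcga the log2 fold change was −2.15 ± 0.97 (SE), and −3.66 without TDCIPP replicate 2. With 1 read against 84, sst1.1 was 132-fold lower per depth, with a counting interval at 95% of 23.1 to 5290. That read was in TDCIPP replicate 3, without which none remained. For gcgb the floor of 3 reads over the TDCIPP group put it at least 28.4-fold lower. The exact counting limit, which also covers the counting error of the DMSO reads, was 22.3-fold. Counting intervals and limits, here and in the later comparisons, pool the reads of a group and leave out the spread between its libraries. The fitted log2 fold changes were −6.66 ± 1.18 (SE) for sst1.1 and −7.89 ± 1.63 (SE) for gcgb. In 3 of 4 hormones the libraries did not overlap, against 8.95% of all 19160 tested genes that were lower without overlap. Nothing is read from this count or its like in the other comparisons, as the genes were chosen on these levels.

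With DOX alone, the hormones also stood lower than with DMSO. Mean ins was 0.156 ± 0.245 CPM with DOX, a log2 fold change of −5.26 ± 1.35 (SE) against DMSO. Leaving out DOX replicate 3, in which oocyte genes were high, gave −8.36, and without DMSO replicate 2 it was −4.62. The log2 fold change was −4.82 ± 1.01 (SE) for sst1.1, with −6.05 when DOX replicate 3 was left out, and −2.92 ± 1.01 (SE) for gcga. For gcgb, 1 read with DOX stood against 54 with DMSO, a ratio 89.1-fold lower with a counting interval of 15.3 to 3580. The libraries did not overlap for 4 of 4 hormones, against 12.3% of all genes. For gcga the gap was clear only on the TMM scale. By library totals, DOX replicate 3 (6 reads) and DMSO replicate 3 (7 reads) both rounded to 0.2 CPM.

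With TDCIPP and DOX together the hormones stood higher than with either agent alone. Against DOX, the log2 fold change was 3.98 ± 1.28 (SE) for ins, 2.74 ± 0.99 for gcga and 5.07 ± 1.01 for sst1.1. For ins it was 7.12 without DOX replicate 3 and 3.25 without TDCIPP+DOX replicate 1. For gcga it was 1.67 without TDCIPP+DOX replicate 1, and for sst1.1 it was 6.33 without DOX replicate 3 and 4.39 without TDCIPP+DOX replicate 3. For gcgb, 53 reads with TDCIPP+DOX against 1 with DOX gave a 37.3-fold ratio with a counting interval of 6.42 to 1500. All 4 hormones were separate from DOX libraries, against 13.5% of all genes that were higher without overlap.

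Against TDCIPP, the log2 fold change of TDCIPP+DOX libraries was 3.59 ± 1.27 (SE) for ins and 1.96 ± 0.96 for gcga. The ins value was 5.29 without TDCIPP replicate 2 and 2.84 without TDCIPP+DOX replicate 1, and the gcga value was 3.47 and 0.90 in those same settings. The sst1.1 ratio, on the single TDCIPP read, was 154-fold with a counting interval of 27.3 to 6090. The gcgb gene was at least 11.9-fold higher from the floor of the TDCIPP group, with an exact counting limit of 9.34-fold. Libraries did not overlap for 3 of 4 hormones, against 14.7% of all genes. Comparisons with TDCIPP or DOX alone share those libraries with the comparisons against DMSO, so their values are set side by side and are not independent.

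The TDCIPP effect with DOX less that without DOX was 8.85 ± 1.85 (SE, log2) for ins and 4.89 ± 1.39 for gcga. With 1 library left out it was 8.12 (without TDCIPP+DOX replicate 1) to 11.98 (without DOX replicate 3) for ins, and 3.82 (without TDCIPP+DOX replicate 1) to 6.4 (without TDCIPP replicate 2) for gcga. It also moved by over 1.5-fold for ins without TDCIPP replicate 2, to 10.55, and without DMSO replicate 2, to 8.21. TDCIPP libraries wholly below DMSO libraries, with TDCIPP+DOX libraries wholly above DOX libraries, were found for 3 of 4 hormones and 0.522% of all genes. The pattern in which both single-agent groups lay wholly below both other groups held for ins, gcgb and sst1.1 and for 36 of 19160 genes in all (0.188%). Both shares of all genes were taken on the TMM scale.

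The 4 hormones were high and low in much the same libraries. Over 12 libraries, Pearson's r of log2 CPM was 0.918 between ins and gcga, 0.895 between ins and gcgb, 0.899 between ins and sst1.1, and 0.907 between gcgb and sst1.1. The lowest was 0.78, between gcga and sst1.1. All share the library and its group: on deviations from group means the same pairs gave 0.791, 0.509, 0.611, 0.536 and 0.276. These are descriptions over libraries of few reads.

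Per length, in the authors' FPKM, ins was the most abundant of the 4 in each library with at least 60 hormone reads. It made up 73.7%, 62.9% and 52.8% of their summed FPKM in TDCIPP+DOX libraries and 73.8%, 85.0% and 73.8% in DMSO libraries. The sst1.1 share was 10.9%, 24.9% and 39.0% in TDCIPP+DOX libraries and 10.3%, 7.6% and 15.7% in DMSO libraries, so that TDCIPP+DOX replicate 3 carried the most sst1.1 relative to ins. Between groups, mean sst1.1 was 1.56 ± 1.07 CPM with TDCIPP+DOX and 1.31 ± 0.631 CPM with DMSO (SD, n = 3 each), and the libraries overlapped. In the TDCIPP and DOX libraries the shares rest on at most 30 reads.

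**Figure D2:**
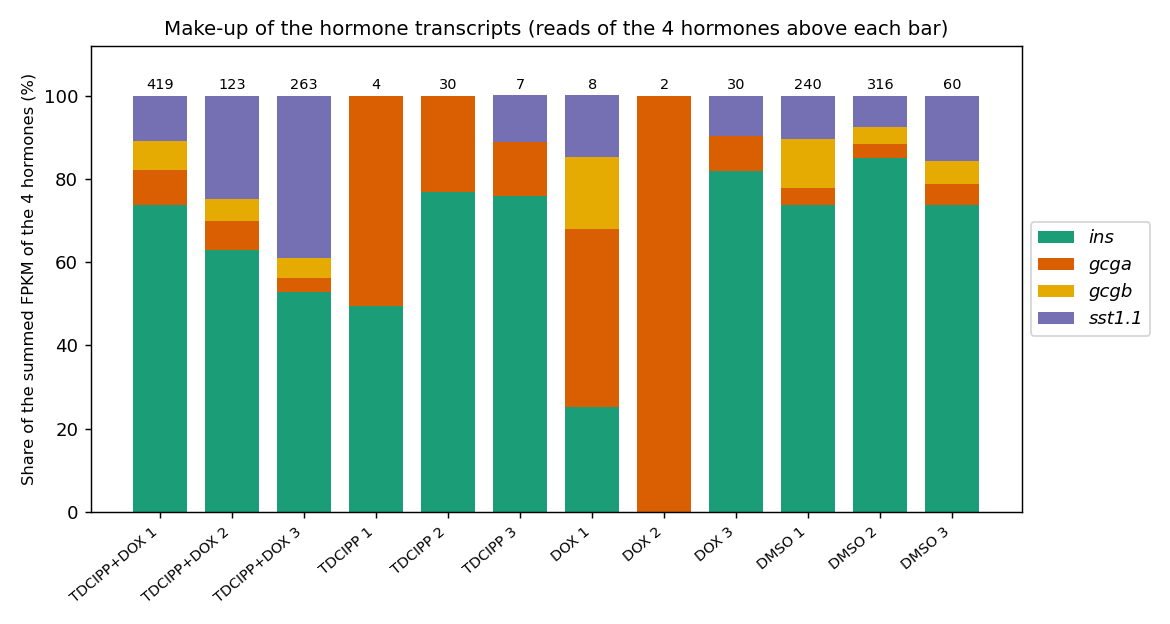
Share of each hormone in the summed FPKM of ins, gcga, gcgb and sst1.1, in percent, by library, with the number of hormone reads given for each. Insulin makes up 52.8% to 85.0% in the 6 libraries with at least 60 hormone reads.

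Exocrine pancreas transcripts did not divide the groups as the hormones did. The 28 measured genes of an exocrine list, which encode digestive enzymes and their regulators, summed to 2450, 668 and 1370 CPM in TDCIPP+DOX libraries and to 1040, 1960 and 1050 CPM in TDCIPP libraries. They summed to 1670, 653 and 277 CPM in DOX libraries and to 1100, 1610 and 3970 CPM in DMSO libraries, so that all groups overlapped. Of the 26 tested, edgeR called 0 in each comparison, beside 0.0261% to 6.86% of all genes, so nothing is read from the 0. At an unadjusted p under 0.05, 0 to 3 were lower and 0 to 1 higher. The share of all genes at that unadjusted threshold is not given here. DESeq2, run without the low count filter, called 0 to 1 of the list, beside 253 to 2585 of 28600 genes. The median log2 fold change of the 26 was −0.8 for TDCIPP against DMSO, −1.82 for DOX against DMSO, 1.16 for TDCIPP+DOX against DOX and 0.16 for TDCIPP+DOX against TDCIPP, beside 0.02, 0.12, −0.08 and −0.01 over all genes. The exocrine median thus had the same sign as the hormones in these comparisons, and its part in the hormone levels was not tested. Trypsinogen prss1, for example, had 299.23, 36.64 and 123.52 CPM with TDCIPP+DOX, 144.1, 292.5 and 145.67 with TDCIPP, 197.85, 27.99 and 9.24 with DOX, and 115.62, 193.34 and 550.57 with DMSO. The elastase gene ela2 averaged 30.2 ± 37.6 CPM with TDCIPP+DOX, 29.0 ± 5.73 with TDCIPP, 10.5 ± 9.07 with DOX and 52.6 ± 48.6 with DMSO (SD, n = 3 each). The amylase gene amy2a had 15.8 to 64.61 CPM with TDCIPP+DOX, 53.18 to 114.05 with TDCIPP, 7.47 to 30.45 with DOX and 47.6 to 165.89 with DMSO. A wide spread held for cpa5 (carboxypeptidase) and ctrb1 (chymotrypsinogen), at 2.21 to 124.91 CPM and 8.21 to 465.62 CPM over the 12 libraries.

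Set against this exocrine sum, the hormone level was low in all TDCIPP libraries, while single DOX and DMSO libraries overlapped. Hormone CPM per 1000 exocrine CPM was 3.46, 3.27 and 4.12 in TDCIPP+DOX libraries and 0.12, 0.53 and 0.16 in TDCIPP libraries. It was 0.14, 0.11 and 2.37 in DOX libraries and 9.89, 9.51 and 0.68 in DMSO libraries. Where the exocrine sum was low, much of it came from a single amylase gene, amy2al1. This gene gave 175.19 of 277.2 CPM in DOX replicate 3 and 415.93 of 652.7 CPM in DOX replicate 2. In TDCIPP+DOX replicate 2 it gave 299.16 of 668.1 CPM. The ratios of these libraries therefore depend on amy2al1. From the sums, leaving this gene out would put the ratio of DOX replicate 3 above that of every TDCIPP+DOX library. The gap between TDCIPP+DOX and DOX ratios thus rests on its inclusion. DMSO replicate 3 had the most exocrine and the fewest hormone reads of its group, and DOX replicate 3 the least exocrine RNA. Across the 12 libraries r between the log2 sums was 0.37 (rho 0.5), and 0.44 without those 2 libraries, as a description.

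**Figure D3:**
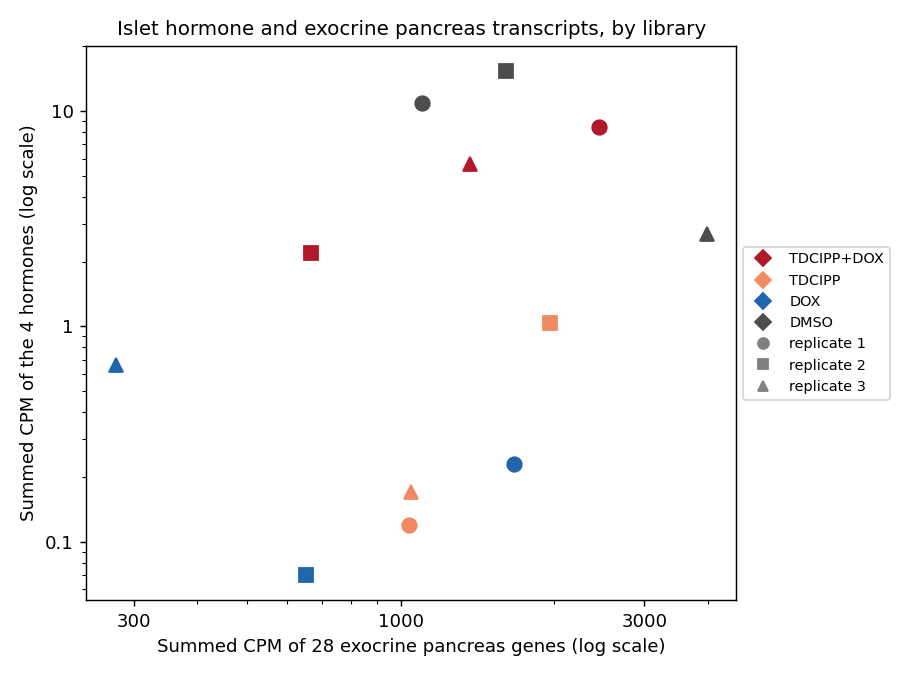
Summed CPM of the 4 hormones (y axis, log scale) against summed CPM of 28 exocrine pancreas genes (x axis, log scale), 1 point per library, coloured by group. TDCIPP points lie low at exocrine levels that overlap those of TDCIPP+DOX and DMSO points. DOX points also lie low, but only replicate 1 is within those exocrine levels. DOX replicates 2 and 3, at 653 and 277 CPM, have less exocrine RNA than every TDCIPP+DOX and DMSO point.

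Intestinal transcripts varied between libraries too. The 22 intestinal genes on a list summed to 166.8, 280.5 and 906.8 CPM with TDCIPP+DOX, 642.5, 532.2 and 519.2 with TDCIPP, 144.1, 240.8 and 161.5 with DOX, and 532.1, 576.2 and 714.0 with DMSO. The apolipoprotein gene apoa4b.1 alone made up 78.6% to 98.1% of the sum in all libraries except TDCIPP+DOX replicate 3, at 34.7%. It fell with DOX, to 175 ± 51.5 CPM against 544 ± 24.7 CPM with DMSO (log2 −1.64 ± 0.30 SE, edgeR adjusted p = 0.0158). That call was lost without DMSO replicate 3, at an adjusted p of 0.0566, and with only the groups compared, at 0.0537. Without apoa4b.1 the list summed to 30.4, 6.18 and 592 CPM with TDCIPP+DOX, 101.1, 10.3 and 15.9 with TDCIPP, 8.07, 7.33 and 5.67 with DOX, and 16.2, 20.6 and 153 with DMSO. Over the 12 intestinal genes tested the median log2 fold change was −0.22 for TDCIPP against DMSO, −4.0 for DOX against DMSO, 5.18 for TDCIPP+DOX against DOX and 2.57 for TDCIPP+DOX against TDCIPP, the sign of the hormones in each. For DOX against DMSO edgeR called apoa4b.1 lower and tph1b, a serotonin synthesis gene with no read with DMSO, higher. Of all genes, 2.93% were called lower and 3.93% higher there. The tph1b call was kept in 9 of 12 fits that left out 1 library. It was lost without any of the 3 DMSO libraries, at edgeR adjusted p of 0.0656 to 0.0808. With only the groups compared its edgeR adjusted p was 0.0755. DESeq2 called 6 of the list and 2585 of 28600 genes. The enterocyte gene fabp2 ranged from 0.20 CPM in DOX replicate 3 to 105.76 CPM in TDCIPP+DOX replicate 3, and the oocyte gene buc reached 205.21 CPM in DOX replicate 3. The part of intestine and ovary in the hormone levels was not tested.

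Most genes on a list of other islet genes were measured at very low levels, whereas mafba had 13.18 to 30.22 CPM and hhex 3.26 to 10.3 CPM. Whether reads of mafba and hhex came from islet cells was not tested. Of 43 other islet genes in the table, 13 passed the filter on low counts, and slc30a8 and ptprn2 had no read in any library. The prohormone convertase genes, whose enzymes cut the hormone precursors, had few reads: pcsk1 had 10 with TDCIPP+DOX, 2 with TDCIPP and 0 with DOX and DMSO, and pcsk2 had 12 with TDCIPP+DOX, 1 with TDCIPP, 6 with DOX and 1 with DMSO. The transcription factor genes isl1, pax6b, neurod1 and nkx2.2a did not exceed 0.47 CPM in any library. The pancreatic factor gene pdx1 had 0.44, 0.21 and 0.56 CPM with TDCIPP+DOX, 0.67, 1.91 and 0.02 with TDCIPP, 0.91, 0.18 and 1.86 with DOX, and 0.95, 4.66 and 1.25 with DMSO, so it was not high where the hormones were in TDCIPP+DOX libraries.

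Other somatostatin genes resembled sst1.1, without its full separation of the groups. The sst2 gene had 58 reads with TDCIPP+DOX, 0 with TDCIPP, 2 with DOX and 34 with DMSO. However, sst2 had 0 CPM in TDCIPP+DOX replicate 2, and DMSO replicate 3 and DOX replicate 3 both had 0.04 CPM. The sst1.2 gene had 0.77, 0.14 and 1.38 CPM with TDCIPP+DOX, 0, 0 and 0.34 with TDCIPP, 0.03, 0 and 0.11 with DOX, and 0.41, 0.68 and 0.31 with DMSO. Its log2 fold change was 3.83 ± 1.48 (SE) for TDCIPP+DOX against DOX, with an edgeR adjusted p of 0.154. The second insulin gene insb had 1 read with TDCIPP+DOX, 3 with TDCIPP, 45 with DOX and 4 with DMSO, and all 45 were in DOX replicate 3, where oocyte genes were high.

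Across the 13 tested, edgeR called 0 in each comparison at a Benjamini-Hochberg adjusted p under 0.05, beside 0.0261% to 6.86% of all genes. At an unadjusted p under 0.05 there were 0 higher and 1 lower for TDCIPP against DMSO, 1 and 1 for DOX against DMSO, 3 and 0 for TDCIPP+DOX against DOX, and 4 and 0 for TDCIPP+DOX against TDCIPP. The share of all genes at this unadjusted threshold is not given here, so nothing is read from these counts. DESeq2, run without the low count filter on 41 of the islet genes, called 0, 1, 0 and 1 in these comparisons. It called 406, 2585, 2087 and 1638 of 28600 genes in all. Median log2 fold changes of the 13 were −0.45, −0.62, 1.55 and 1.61, beside 0.02, 0.12, −0.08 and −0.01 over all genes.

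**Figure D4:**
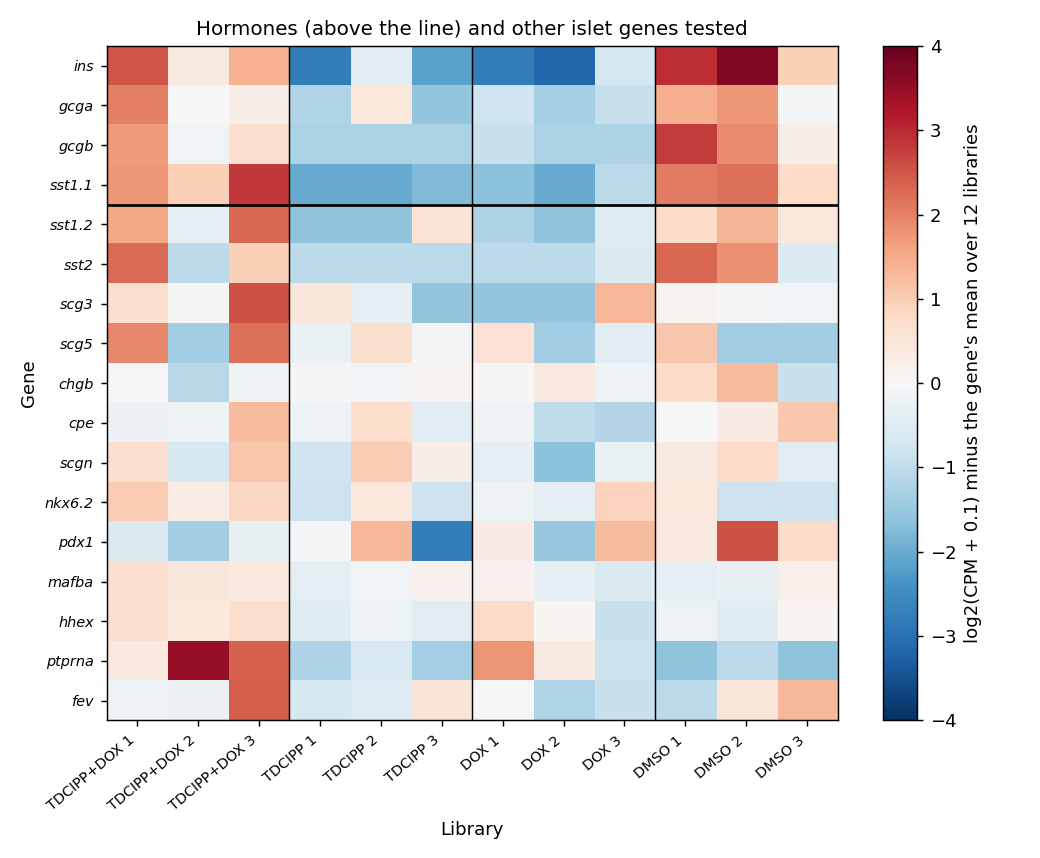
Level of the hormones (above the line) and of the other tested islet genes (below it) in each library, as log2(CPM + 0.1) minus the gene's mean over 12 libraries. TDCIPP and DOX columns are low for ins, gcgb and sst1.1, and sst2 is also low in TDCIPP+DOX replicate 2 and DMSO replicate 3.

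The genes whose pattern was most like a hormone's included other hormones. Genes with only a clone, database or placeholder name were left out of this ranking. For ins, the 5 highest r over 12 libraries, among the other genes of the 19160, were with gcga (0.918), tle3b (0.903), sst1.1, gcgb and scn4ab (0.89). For gcgb they were with sst2 (0.923), sst1.1, ghrl (0.901), qpct (0.899) and ins. For sst1.1 they were gcgb, ins, sst1.2 (0.879), lamb2l (0.877) and synpo2lb (0.856), and for gcga they were ins, gcgb, sst2 (0.855), scn4ab (0.826) and afmid (0.82). The ghrl gene encodes ghrelin, a hormone of gut and islet cells, and qpct encodes glutaminyl cyclase. Mean ghrl was 1.71 ± 1.28 CPM with TDCIPP+DOX, 0.286 ± 0.325 with TDCIPP, 0.336 ± 0.218 with DOX and 3.47 ± 2.74 with DMSO (SD, n = 3 each). Between 14 and 24 genes, whatever their name, had r of at least 0.8 with a given hormone.

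Liver genes that receive the hormones' signals were tested for each comparison. Of 26 measured genes for receptors and their signalling, 20 were tested. For TDCIPP against DMSO edgeR called 0 of these, beside 0.0418% of all genes. At an unadjusted edgeR p under 0.05 there were 5, 1 of them higher. The share of all genes at that unadjusted threshold is not given here, so nothing is read from the 5. DESeq2, run without the low count filter, called 2 of the list and 406 of 28600 genes. The insulin receptor gene insra had 25.6 ± 5.71 CPM with TDCIPP+DOX, 29.1 ± 3.21 with TDCIPP, 22.9 ± 3.97 with DOX and 36.0 ± 4.6 with DMSO (SD, n = 3 each). Its edgeR adjusted p was 0.0926 for DOX against DMSO. Its paralogue insrb averaged 15.2 to 20.0 CPM and the glucagon receptor gene gcgra 12.1 to 14.6 CPM over the 4 groups. The other glucagon receptor gene gcgrb fell with DOX, to 1.65 ± 0.578 CPM against 5.02 ± 1.26 with DMSO, a log2 fold change of −1.61 ± 0.38 (SE, edgeR adjusted p = 0.0341). It kept this call in 4 of 12 fits that left out 1 library.

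DOX against DMSO also called ide higher and pik3r3a lower, so that 1 of the 20 was higher, beside 3.93% of all genes, and 2 were lower, beside 2.93% (6.86% in either direction). DESeq2 called 6 of the list and 2585 of 28600 genes. The ide gene encodes the insulin-degrading enzyme, and had 53.1 ± 17.1 CPM with DOX and 26.2 ± 3.95 with DMSO (log2 1.02 ± 0.25 SE, edgeR adjusted p = 0.0372), a call kept in 2 of 12 such fits. The pik3r3a gene, for a regulatory subunit of phosphoinositide 3-kinase, had 12 ± 4.16 CPM with DOX and 58.2 ± 45.6 with DMSO (log2 −2.28 ± 0.54 SE, edgeR adjusted p = 0.0323), kept in 6 of 12. All 3 calls were lost in a fit of only the groups compared, with adjusted p of 0.107 for gcgrb, 0.126 for ide and 0.122 for pik3r3a.

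The clearest change of the signalling genes was in irs2b, for an insulin receptor substrate. It had 15.95, 14.41 and 17.07 CPM with TDCIPP+DOX, 5.30, 6.1 and 6.53 with TDCIPP, 4.97, 3.07 and 3.74 with DOX, and 5.40, 4.95 and 7.39 with DMSO. Every TDCIPP+DOX library lay above every other library. It was the only gene of this list that edgeR called against DOX (0.71% of all genes higher, 2.1% in either direction). DESeq2 called 2 of the list there, and 2087 of 28600 genes. The irs2b gene rose by 2.01 ± 0.25 (log2, SE) against DOX (edgeR adjusted p = 0.0176) and by 1.40 ± 0.24 against TDCIPP (edgeR adjusted p = 0.0127), each kept in 8 of 12 fits that left out 1 library. Against DOX the adjusted p was 0.122 with only the groups compared and 0.0961 without DOX replicate 2, and against TDCIPP it was 0.0628 without TDCIPP replicate 2. Its level in DMSO libraries, where ins was also present, overlapped that in TDCIPP libraries. Its interaction had an edgeR adjusted p of 0.0867, where 0.0261% of all genes were called. The akt2 gene, for a kinase of the insulin pathway, had 24.4 ± 3.05 CPM with TDCIPP+DOX and 46.3 ± 7.69 with TDCIPP (log2 −0.92 ± 0.20 SE, edgeR adjusted p = 0.0280), where 2.16% of all genes were lower, 2.03% higher and 4.18% changed in either direction. DESeq2 called 3 of the list there, and 1638 of 28600 genes. The edgeR call of akt2 was kept in 7 of 12 fits and lost with library totals, at an adjusted p of 0.536.

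**Figure D5:**
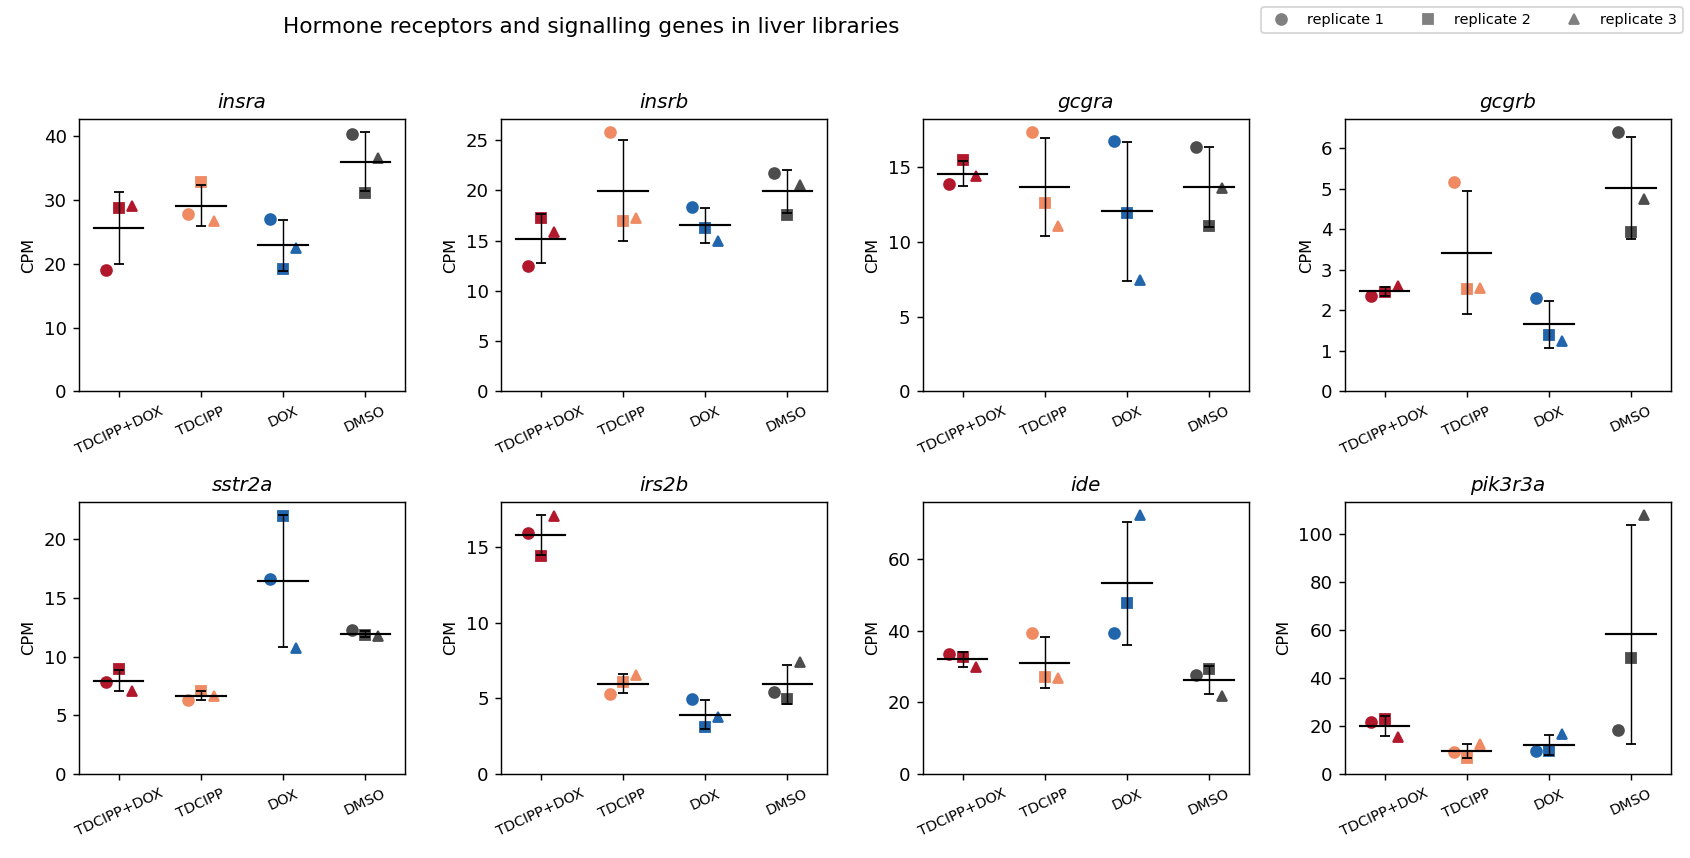
Levels of receptor and signalling genes in CPM in each library, with the group mean as a bar and the SD as whiskers (n = 3). For irs2b all TDCIPP+DOX libraries lie between 14.41 and 17.07 CPM, above every other library.

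Of 32 tested liver genes of glucose and fat metabolism known to respond to insulin or glucagon, edgeR called 0 for TDCIPP against DMSO, beside 0.0418% of all genes. At an unadjusted p under 0.05, 3 were higher and 7 lower. The share of all genes at that unadjusted threshold is not given here. For DOX against DMSO edgeR called 4 higher and 3 lower, beside the 3.93% and 2.93% of all genes. DESeq2, run without the low count filter, called 4 of the list for TDCIPP against DMSO, beside 406 of 28600 genes. For DOX against DMSO it called 10 of the list, beside 2585 of 28600. Those that edgeR called higher with DOX were fasn and srebf1 (fat synthesis and its regulator, log2 3.29 and 1.67), gck (glucokinase) and ppp1r3cb (glycogen metabolism). Those lower were ppp1r3ca, with 42.8 ± 3.01 CPM with DOX and 308 ± 161 with DMSO (log2 −2.84 ± 0.45 SE, edgeR adjusted p = 0.00992), creb3l3a (log2 −1.98 ± 0.32 SE, edgeR adjusted p = 0.0103) and klf15. The calls of fasn, ppp1r3ca and creb3l3a held in 12 of 12 fits that left out 1 library, that of creb3l3a had an adjusted p of 0.0608 with only the groups compared, and ppp1r3cb was kept in 3 of 12. The calls of gck and srebf1 were kept in 9 of 12 and lost without any of the 3 DMSO libraries, and that of klf15 was kept in 7 of 12 and lost with only the groups compared, at 0.0608. With TDCIPP+DOX, irs2b, which is on both lists, was the only gene of this list that edgeR called against DOX. DESeq2 called 6 of the list there, beside 2087 of 28600 genes. Both irs2b and ppp1r3cb were called higher by edgeR against TDCIPP (ppp1r3cb log2 1.36 ± 0.31 SE, edgeR adjusted p = 0.0331, kept in 6 of 12 fits). Against TDCIPP, DESeq2 also called 6 of the list, beside 1638 of 28600 genes.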

How the data were processed

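Liver RNA was extracted with Trizol and made into libraries with the NEBNext Ultra kit, per the labels' protocols. HISAT is named in the submitters' processing notes; no version, counter, genome build or annotation is named in these sources. The authors deposited read counts per gene, FPKM values (per length and depth) and adjusted p-values of their comparisons, the last not reported here, in 1 table of 34028 genes. Sequences and coordinates were not used here. Counts were tested with edgeR 4.0.16 in R 4.3.3: TMM scaling, filterByExpr, 1 quasi-likelihood model of 4 group means over 12 libraries, and Benjamini-Hochberg adjustment over 19160 genes with a threshold of 0.05. The test was tested on simulated data. FPKM served only to compare genes per length. The prior count of log2 CPM was 2, and the heat map used a pseudocount of 0.1. DESeq2 1.42.0, library totals, other filters, fits without a library and a replicate block were alternatives. DESeq2 was run without the low count filter of edgeR, on 28600 genes, so its list counts can hold genes that edgeR did not test. Its own default filters were on and can leave genes without an adjusted p. The 28600 genes, and the 41 islet genes, are thus those entered. How many of them kept an adjusted p is not given here. The hormones and gene lists were chosen with earlier results of these data known. Named were the hormones, a fixed set of islet, exocrine, liver and receptor genes, called genes of each list by adjusted p, and the 5 genes most like each hormone, clone names left out.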

Additional observations from a re-analysis of the deposited data

Results flagged for a closer look

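For ins, gcgb and sst1.1 every TDCIPP library lay below every DMSO library, whereas every TDCIPP+DOX library lay above every DOX library. The lowest TDCIPP+DOX libraries had 1.03 CPM of ins, 0.12 CPM of gcgb and 0.69 CPM of sst1.1. On the TMM scale the same held for afmid, with a lowest value of 10.41 CPM, and for lamb2l, with 0.39 CPM, both named for their likeness to a hormone. By library totals, TDCIPP and DMSO libraries overlapped for afmid. These 5 genes were chosen for this pattern, so the difference is a description and was not tested, with no p-value given. The 2 opposite separations together held for 100 of 19160 genes (0.522%) on the TMM scale.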

How the results depend on the processing

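No hormone's fold change turned its direction in any of the alternatives run, DESeq2 and the replicate block included. The count of other islet genes called was 0 in all 5 comparisons and stayed 0 with the replicate block. For DOX against DMSO it was 2 of 13 with library totals (hhex and ptprna), beside 5033 of 19160 genes in all. It was 1 of 41 with DESeq2 (ptprna), beside 2585 of 28600. For TDCIPP+DOX against TDCIPP it was 3 of 13 with library totals, beside 2724 of 19160 genes. It was 1 of 41 with DESeq2, beside 1638 of 28600, and 2 of 10 with only the groups compared, beside 1092 of 18258. With 1 library left out it was 0 to 2, where 127 to 1339 genes were called in all. For the interaction it was 1 of 41 with DESeq2 (sst2), beside 253 of 28600. The cause was not tested. The median r between hormones was 0.9, and 0.57 on deviations from group means. Replicate numbers did not pair the libraries: same-numbered deviations correlated at −0.225 to 0.182, and the block moved the counts of all called genes to 13, 986, 256, 727 and 3, from 8, 1315, 403, 801 and 5. Scaling by library totals put the all-gene median for DOX against DMSO at 0.83 (log2), against 0.12 with TMM. A fit left out DMSO replicate 3, TDCIPP replicate 1 and TDCIPP+DOX replicate 3, with the highest intestinal sums without apoa4b.1, and DOX replicate 3, with the highest oocyte sum. The libraries kept were not free of such transcripts: the oocyte sum was 261.6 CPM in TDCIPP replicate 2, against 119.1 in TDCIPP replicate 1. Without these 4 libraries, ins gave −4.83 for TDCIPP against DMSO, −8.82 for DOX against DMSO, 7.25 for TDCIPP+DOX against DOX and 3.26 for TDCIPP+DOX against TDCIPP. Hormone values rest on 2 to 419 reads per library.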

Other observations

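On the TMM scale, TDCIPP and DOX libraries each lay below all TDCIPP+DOX and DMSO libraries for 36 genes. Among them were klf9, tsc22d3 and nr1d2a, named after their values were seen and given with no test. The transcription factor gene klf9 had 10.9, 24.8 and 13.2 CPM with TDCIPP+DOX, 5.76, 7.11 and 9.31 with TDCIPP, 2.52, 4.27 and 7.66 with DOX, and 33.1, 68.5 and 103 with DMSO. The nr1d2a gene, for a nuclear receptor of the circadian clock, had 53.1, 61.4 and 57.9 CPM with TDCIPP+DOX, 28.9, 18.3 and 34.3 with TDCIPP, 15.2, 20.9 and 33.1 with DOX, and 62.0, 157 and 247 with DMSO. On the TMM scale, TDCIPP+DOX libraries lay below DMSO libraries for both, whereas those groups overlapped for the 4 hormones. The TMM factors were 1.393 to 1.457 for TDCIPP+DOX libraries and 0.6402 to 0.7702 for DMSO libraries. By library totals those groups overlapped for klf9 and nr1d2a too. On that scale DOX replicate 3, with a TMM factor of 1.523, also lay above DMSO replicate 1 for nr1d2a and tsc22d3. For these genes the separation of DOX from DMSO libraries was thus seen only on the TMM scale.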
